A study of Mus musculus with 26 samples.

Results

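The mitochondrial genome is a small circular DNA that every mitochondrion carries in many copies. It encodes subunits of the respiratory chain and of ATP synthase together with the rRNAs and tRNAs that translate them. The genes examined here were all those whose symbol begins with mt-, which gave 37 of the 50686 genes in the count table, namely 13 mRNAs, 2 rRNAs and 22 tRNAs. Both strands are transcribed as long precursors from a control region, and enzymes that recognise the tRNAs lying between the other genes cut these precursors into single RNAs. In the usual naming, 28 of the genes are assigned to the heavy strand (12 mRNAs, both rRNAs and 14 tRNAs), and the other 9 to the light strand (mt-Nd6 and 8 tRNAs). In brown fat these proteins have a special place, because uncoupling protein 1 turns the proton gradient built by the respiratory chain into heat.

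RNA was sequenced from supraclavicular brown adipose tissue (BAT) of 26 male mice of strain C57BL/6J. Mice labelled Afadin KO (7 at 30 °C, group KO30, and 7 at 5 °C, group KO5) carried Mllt4 flox/flox alleles and an Adiponectin-Cre transgene, whose promoter is active in white and brown adipocytes, so that other cells of the tissue kept the gene. Control littermates, labelled WT, numbered 7 at 30 °C (WT30) and 5 at 5 °C (WT5). All mice had spent 2 weeks at thermoneutrality, and the mice of the 5 °C groups were then moved to the cold for 6 h. Afdn, the gene encoding Afadin, had a level of 196 ± 21.0 CPM (SD, n = 7) in WT30, 195 ± 27.4 in KO30 (n = 7), 73.5 ± 4.27 in WT5 (n = 5) and 58.5 ± 4.15 in KO5 (n = 7). The difference between the mice labelled KO and controls did not pass the threshold at 30 °C (log2 difference −0.01, adjusted p = 0.992) or at 5 °C (−0.33, adjusted p = 0.116). At 30 °C the ranges overlapped, whereas at 5 °C all 7 mice labelled KO (53.3 to 65.3 CPM) lay below all 5 controls (67.9 to 79.2 CPM). As the levels at 30 °C did not separate the labels, genotypes are named by their labels throughout. Levels are given as CPM, a gene's counts as a rate of the library's total after TMM scaling (trimmed mean of M values). Adjusted p values come from edgeR's quasi-likelihood test over all 17286 genes tested, with Benjamini-Hochberg adjustment and a threshold of 0.05.

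Total counts ranged from 12705969 to 25732258 per mouse. The 9 brown adipocyte markers, Ucp1 among them, summed to between 6397 and 8159 CPM in the mice at 30 °C and to between 27848 and 35605 CPM in the mice at 5 °C, and none was at 0 throughout. The 10 skeletal muscle markers varied from 29.2 to 8237 CPM in sum, with a wide range inside every group. One control mouse at 30 °C, WT30 replicate 7, stood apart from its group: mitochondrial genes took 14.3% of its counts against 33.9% or more in the other 6, and its muscle marker sum was 6086 CPM against at most 1649 CPM. The part of muscle RNA in its values was not tested, and results that rest on this mouse are given with and without it.

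Mitochondrial RNA made up 19.2 to 40.5% of all counts in the other 25 mice. Most of it was rRNA: mt-Rnr2, the large ribosomal RNA, was the most abundant of the 37 RNAs per kilobase, with 147604 ± 51222 CPM per kilobase (SD, n = 7) in WT30, and mt-Rnr1, the small ribosomal RNA, had 30893 ± 12110. These libraries were depleted of rRNA with a kit that also targets the mitochondrial rRNAs. The counts therefore show what remained of both, and depletion and abundance cannot be told apart. The 2 rRNAs together took 26.0 ± 7.96% of all counts in WT30 (SD, n = 7), 22.9 ± 5.33% in KO30 (n = 7), 22.7 ± 2.98% in WT5 (n = 5) and 22.7 ± 6.87% in KO5 (n = 7). The ranges of the groups overlapped throughout. A list of 7 RNAs drawn up to follow the depletion step summed to 8750 to 11137 CPM in WT30 and 7630 to 8423 in KO30. In the cold its sum was 10214 to 10946 CPM in WT5 and 10306 to 12682 in KO5, so it also differed between groups. Gm42418, a member of the list, had no count in any mouse, and Gm26917 had 873 to 2506 CPM. The rest were Rn7sk, Rn7s1, Rn7s2, Rmrp and Rpph1, which are not rRNA, so the sum does not measure depletion. Of the 6 RNAs of the list that were tested, 1 passed the threshold for the difference between the cold responses of the genotypes, higher in mice labelled KO. The part of the list in the mitochondrial values was not tested.

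The 13 mRNAs took 8.06 ± 1.32% of all counts in WT30 and 7.57 ± 0.749% in KO30, and 6.27 ± 0.411% in WT5 and 6.42 ± 0.466% in KO5. The share was 5.26, 8.57 and 9.24% in the lowest, median and highest mouse of WT30, and 5.92, 5.97, 6.20, 6.32 and 6.94% in the 5 mice of WT5. Apart from WT30 replicate 7, the control mice at 30 °C (7.88% or more) all lay above those at 5 °C. In the mice labelled KO the ranges were 6.68 to 8.80% at 30 °C and 5.87 to 7.16% at 5 °C and overlapped. mt-Co1, the catalytic subunit of cytochrome c oxidase (complex IV), alone supplied 69.0 to 71.4% of the mRNA counts on average in each group. Several of the 13 mRNAs, such as mt-Co2 and mt-Co3, had almost no counts and have nuclear copies, described below. The shares of this paragraph therefore describe the mRNAs that could be counted, not all 13.

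**Figure D1:**
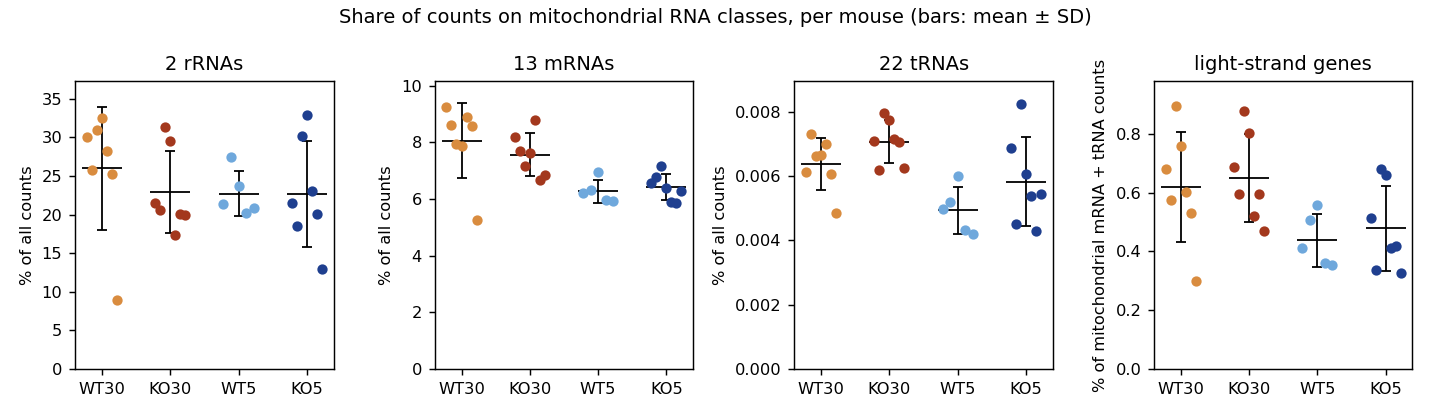
Share of all counts on the 2 rRNAs, 13 mRNAs and 22 tRNAs, and share of the mitochondrial mRNA and tRNA counts that lay on light-strand genes (y axes, percent), by group (x axis); points are mice and bars the mean ± SD. The mRNA share was 8.06 and 7.57% at 30 °C and 6.27 and 6.42% at 5 °C, while the rRNA shares overlapped; the single low point of WT30 is replicate 7.

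The 22 tRNAs together held only 0.00638 ± 0.000809% of the counts in WT30 (SD, n = 7), 0.00707 ± 0.000666% in KO30, 0.00494 ± 0.00073% in WT5 (n = 5) and 0.00583 ± 0.00138% in KO5. The genes are 59 to 75 bases long and the reads 100 bases, so these counts need not come from mature tRNAs. How reads that reach into a neighbouring gene were counted was not given, so the shares and order of the tRNAs need not follow their abundance. Light-strand tRNAs held most of the tRNA counts: 80.4 ± 2.84% in WT30, 81.2 ± 2.29% in KO30, 80.6 ± 3.13% in WT5 and 80.8 ± 3.58% in KO5. A single light-strand tRNA, mt-Tp, which carries proline and lies next to the control region, accounted for 52.9 to 59.0% of all tRNA counts on average in each group. After it came the light-strand mt-Tc (cysteine), mt-Ta (alanine) and mt-Tq (glutamine), at 4.66 to 6.31, 3.18 to 4.37 and 3.15 to 4.03 CPM in the group means. The highest heavy-strand tRNA was mt-Tl1, the leucine tRNA that separates mt-Rnr2 from mt-Nd1, with group means of 2.80 to 4.98 CPM. In WT30 mt-Tm (methionine, 2.01 CPM), mt-Tt (threonine, 1.82 CPM) and mt-Ts2 (serine, 1.48 CPM) came next on that strand, within the spread of each other. At the other end, mt-Td and mt-Tk had no count in any of the 26 mice, and mt-Ts1 and mt-Tr had 2 and 3 counts in all. They all lie in the stretch from mt-Co1 to mt-Nd4, of which a nuclear copy is described below. Being shorter than the reads, they held no window of 100 bases to match with that copy. Their low counts therefore say nothing about their expression. The heavy-strand tRNA with the highest level and 3 light-strand tRNAs with many counts are shown here from the annotated transcripts. They are written 5′ to 3′ as DNA letters, with the anticodon in capitals.
mt-Tp: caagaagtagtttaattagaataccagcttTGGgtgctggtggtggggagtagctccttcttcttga
mt-Tc: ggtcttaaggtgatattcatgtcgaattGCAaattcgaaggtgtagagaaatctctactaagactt
mt-Tq: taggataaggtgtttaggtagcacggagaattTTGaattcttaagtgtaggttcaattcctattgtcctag
mt-Tl1: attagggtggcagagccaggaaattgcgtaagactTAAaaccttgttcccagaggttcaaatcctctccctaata

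Among the mRNAs the light strand was the minor one. mt-Nd6, a membrane subunit of complex I, is the only mRNA of the light strand. It had 901 ± 373 CPM per kilobase in WT30, below its heavy-strand neighbours mt-Nd5 (1192 ± 357) and mt-Cytb (10341 ± 2930). The spreads of mt-Nd6 and mt-Nd5 between mice overlapped, but within each mouse of WT30 mt-Nd6 was below mt-Nd5 per kilobase. The counts on light-strand genes were 0.619 ± 0.188% of the mitochondrial mRNA and tRNA counts in WT30 and 0.649 ± 0.149% in KO30, and 0.438 ± 0.0901% in WT5 and 0.478 ± 0.145% in KO5. The mean log2 difference was −0.46 in controls and −0.47 in mice labelled KO, against a spread within groups of 0.406 (SD), and the ranges overlapped. Whether the counting used strand was not given in the sources used here; mt-Nd6 and mt-Nd5 overlap by a few bases at their ends.

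The 7 heavy-strand mRNAs that passed the filter on low counts did not share a common level, although they come from one precursor. Per kilobase in WT30, mt-Co1 had 36742 ± 7944 CPM, mt-Cytb (the cytochrome b of complex III) 10341 ± 2930, and mt-Nd1 5893 ± 1472. The complex I subunits mt-Nd2 (1579 ± 503), mt-Nd4 (1393 ± 386) and mt-Nd5 (1192 ± 357) followed, with overlapping spreads between mice. Within each mouse of WT30, however, mt-Nd5 was below mt-Nd2 and mt-Nd4 per kilobase. Part of mt-Nd4 and mt-Co1 also exists as identical nuclear copies, described next, and with only the stretches free of such copies as length the order changed: mt-Nd4 (382 CPM per 100 windows of 100 bases without a copy) then lay between mt-Nd1 (657) and mt-Nd2 (180). Per kilobase of the whole gene mt-Nd3 came last, at 34.8 ± 52.7 CPM per kilobase, a value that stood for very different counts in single mice, as described further on.

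**Figure D2:**
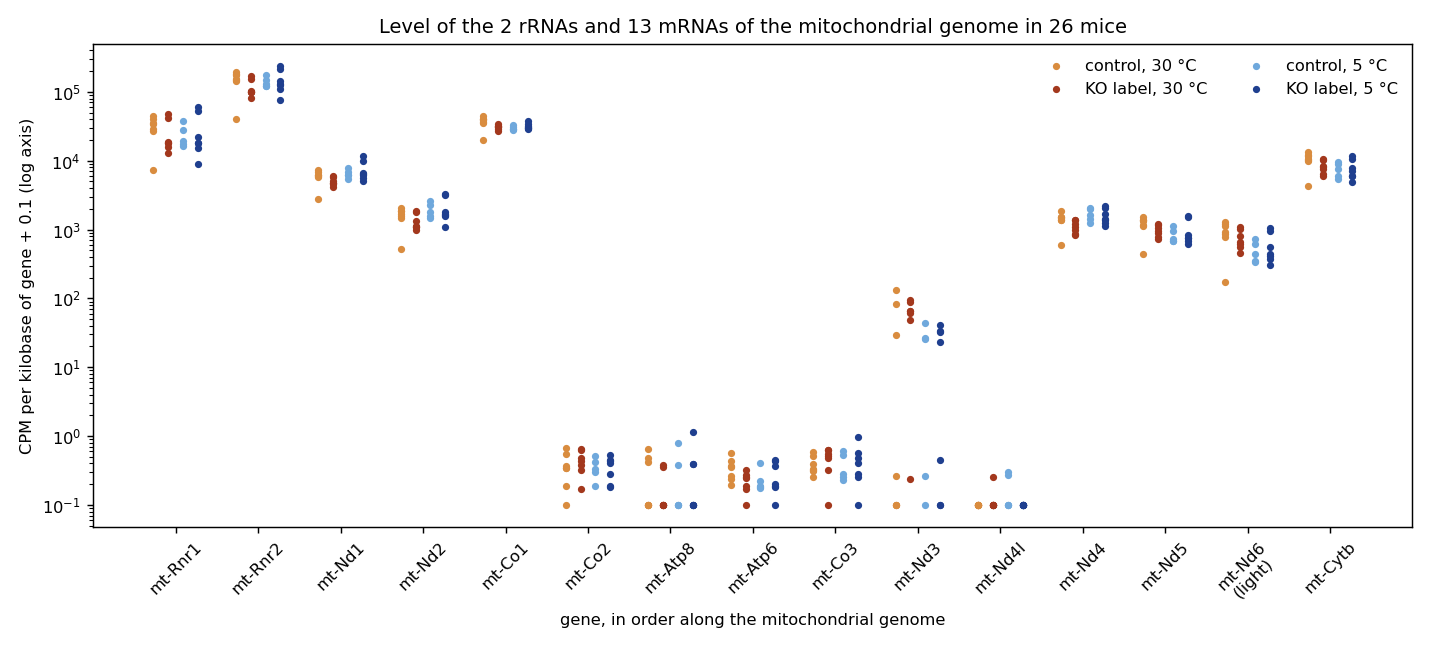
Level of the 2 rRNAs and 13 mRNAs in order along the genome (x axis) as CPM per kilobase of gene plus 0.1 on a log axis (y axis); each point is a mouse, coloured by group. mt-Rnr2 was highest, mt-Co2, mt-Atp8, mt-Atp6, mt-Co3 and mt-Nd4l lay at the bottom of the axis in every mouse, and mt-Nd3 fell into a high and a low set of mice.

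The remaining 5 mRNAs had almost no counts. mt-Co2 (total of 86 counts over 26 mice), mt-Co3 (113), mt-Atp6 (51), mt-Atp8 (14) and mt-Nd4l (3) encode subunits of complex IV, ATP synthase and complex I, and they lie side by side between mt-Co1 and mt-Nd4 on the genome. The nuclear genome holds a copy of this stretch on chromosome 1 (mm10, minus strand), annotated as the pseudogenes Gm28439, Gm10222, Gm28438, Gm28437, Gm10925, Gm28661 and Gm29216 between positions 24611535 and 24616197. Of the 100-base windows of each gene, 99.5% of mt-Co2, 99.5% of mt-Atp6, 99.9% of mt-Co3, 98.5% of mt-Nd4l and 97.6% of mt-Nd3 had an identical sequence in an annotated nuclear transcript. The share was 60.8% for mt-Nd4, 30.8% for mt-Co1, 3.19% for mt-Nd2, and 0 for mt-Nd1, mt-Nd5, mt-Nd6, mt-Cytb and both rRNAs. A read of this length from such a window cannot be placed on one genome over the other. The values of the copied genes are therefore uncertain, and their low counts say nothing about their expression. mt-Atp8 had no such window, but it lies in a gap between the annotated Gm10925 and Gm28661, so its copy could not be examined. The copies themselves were low, with mean levels of 13.3 CPM for Gm28437, 5.07 for Gm10925, 5.21 for Gm28661 and 7.12 for Gm29216. On chromosome 2 a further pair of copies, Gm13340 (of mt-Co1, 39.2 CPM) and Gm13341 (of mt-Co2, 6.53 CPM), was 97.6 and 95.9% identical to the mitochondrial gene.

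mt-Nd3, a further membrane subunit of complex I, was annotated with a copy that is identical but for 1 base. It lies on chromosome M, positions 9459 to 9806, and its copy Gm28438 differed from it over their shared 345 bases only at the third base (T3C, counted from 1 at the start of mt-Nd3, mitochondrial base first; chromosome M position 9461). The first 60 bases of both are shown 5′ to 3′, with the differing base in capitals.
mt-Nd3: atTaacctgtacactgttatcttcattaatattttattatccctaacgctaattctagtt
Gm28438: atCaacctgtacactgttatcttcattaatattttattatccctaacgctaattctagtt

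Counts on mt-Nd3 fell into separate sets of mice: 10 mice had 0 to 2 counts, and the other 16 had 130 to 714. Gm28438 was the mirror image, with 263 to 981 counts in the first 10 mice and 33 to 181 in the other 16. The mice with 0 to 2 counts comprised 4 of 7 in WT30, 1 of 7 in KO30, 2 of 5 in WT5 and 3 of 7 in KO5, so both sets occurred in every group. mt-Tg, the glycine tRNA gene directly before mt-Nd3, had no count in any of those 10 mice and 1 to 25 counts in each of the others. mt-Nd3 on its own passed the threshold in neither genotype, with log2 fold changes in the cold of −0.84 (SE 1.21) in controls and −1.72 (SE 1.10) in mice labelled KO and adjusted p of 0.558 and 0.17.

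The sum of mt-Nd3 and Gm28438 varied far less. It was 12.1, 45.4 and 57.7 CPM in the lowest, median and highest mouse of WT30 and 22.3, 29.0 and 46.1 CPM in KO30. In the cold the corresponding values were 11.4, 13.7 and 18.6 CPM in WT5 and 10.6, 18.6 and 25.1 CPM in KO5. Most cold mice lay lower, but the ranges overlapped in both genotypes. In controls only WT30 replicate 7, the mouse described above, reached into the range of the cold mice, and among mice labelled KO the highest cold mouse, KO5 replicate 28, lay above KO30 replicates 13 (22.3 CPM) and 14 (24.9 CPM). With the counts of the copy added to mt-Nd3, a choice made after seeing the data, the fit gave a log2 fold change of −1.45 in the cold in controls (adjusted p = 4.29e-05) and −0.80 in mice labelled KO (adjusted p = 0.00459), with no difference past the threshold by label at 30 °C (−0.36, adjusted p = 0.767) or at 5 °C (0.28, adjusted p = 0.69). Only 6 of the 249 windows of mt-Nd3 lack an identical copy, and reads from the other windows cannot be placed. The sum therefore need not follow the level of mt-Nd3.

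**Figure D3:**
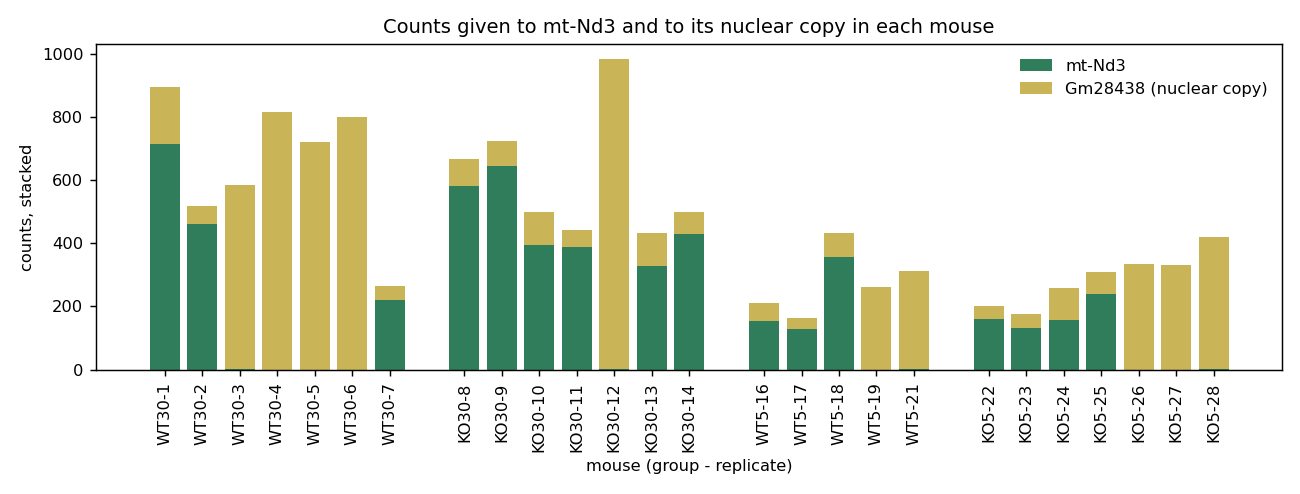
Counts (y axis) assigned to mt-Nd3 and, stacked on top, to its nuclear copy Gm28438 in each of the 26 mice (x axis). In 10 mice at most 2 counts went to mt-Nd3, in 16 mice 130 or more did, and both kinds of mouse occurred in every group.

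Of the 37 genes, 24 passed the filter on low counts and were tested: 8 of 13 mRNAs, both rRNAs, 9 of 14 heavy-strand tRNAs and 5 of 8 light-strand tRNAs. In control mice 3 of them differed between 5 and 30 °C, all lower in the cold, where 65.0% of all genes tested passed the threshold (31.6% higher, 33.4% lower). They were mt-Co1 (log2 fold change −0.30, SE 0.126, adjusted p = 0.0373), mt-Nd6 (−0.87, SE 0.361, adjusted p = 0.0371) and mt-Ts2 (−1.41, SE 0.405, adjusted p = 0.00347). mt-Co1 lost the call with the revised quasi-likelihood method (adjusted p = 0.146), without a filter (0.0555) and in a fit of only the groups compared (0.0632), and mt-Nd6 with robust empirical Bayes (adjusted p = 0.0538). In mice labelled KO 5 differed, 4 higher and 1 lower, against 68.6% of all genes (33.7% higher, 34.9% lower). The 4 that were higher were the complex I subunits mt-Nd1 (0.55, SE 0.178, adjusted p = 0.00762), mt-Nd2 (0.61, SE 0.249, adjusted p = 0.0316) and mt-Nd4 (0.53, SE 0.189, adjusted p = 0.0142), and the tRNA mt-Tl1 (0.82, SE 0.262, adjusted p = 0.00712). The other complex I mRNAs mt-Nd5 (−0.01), mt-Nd6 (−0.36) and mt-Nd3 (−1.72) did not pass the threshold. mt-Ts2 was lower there too (−0.83, SE 0.347, adjusted p = 0.037). In both genotypes the share of mitochondrial genes past the threshold was below that of all genes. The median log2 fold change of the 24 genes was −0.35 in controls and 0.07 in mice labelled KO, beside −0.01 and −0.03 over all genes tested.

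The values in single mice show how close the groups lay. mt-Nd6 was 89.5, 471 and 666 CPM in the lowest, median and highest mouse of WT30, and 226, 317, 377, 184 and 177 CPM in WT5. mt-Ts2 was 0.0918, 1.66 and 2.05 CPM in WT30, and 0.474, 0.348, 0.901, 0.416 and 0.518 CPM in WT5. WT30 replicate 7 held the lowest value of both genes, and the ranges overlapped. mt-Nd1 was 3976, 4601 and 5699 CPM in KO30 and 4799, 6182 and 11309 CPM in KO5, and mt-Nd4 was 1153, 1487 and 1922 against 1570, 1972 and 3075 CPM. These ranges overlapped as well, and the highest values of both genes were those of KO5 replicates 24 and 25. These mice had the lowest TMM factors of all (0.769 and 0.759) and the highest skeletal muscle marker sums of KO5 (4150 and 8237 CPM), whose part in these values was not tested. Without replicate 24 or 25 the log2 fold change of mt-Nd1 was 0.39 or 0.46 and that of mt-Nd4 0.46 or 0.43, past the threshold each time, and that of mt-Tl1 was 0.51 without replicate 24.

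Which genes passed the threshold depended on how the libraries were scaled. The genes called with TMM factors kept their direction with library size alone, but those called higher in mice labelled KO no longer passed. With library size alone, which took the median log2 fold change of all genes from −0.01 to −0.14 in controls and from −0.03 to −0.34 in mice labelled KO, 7 genes were lower in controls and 6 in mice labelled KO, with none higher in either. mt-Nd1 in mice labelled KO then had a log2 fold change of 0.20 (adjusted p = 0.151), and mt-Co1 turned from 0.05 (adjusted p = 0.712) to −0.28 (adjusted p = 0.00769). mt-Ts2 and mt-Nd6 were lower in the cold in both genotypes under both scalings, although mt-Nd6 in mice labelled KO passed the threshold only with library size alone (−0.36, adjusted p = 0.329, against −0.72, adjusted p = 0.0178). Without WT30 replicate 7, 7 genes were lower in controls. mt-Nd5 (−0.69, adjusted p = 0.0061), mt-Cytb (−0.62, adjusted p = 0.00753), mt-Th (−1.08) and mt-Ta (−0.66), the tRNAs for histidine and alanine, then joined mt-Co1, mt-Nd6 and mt-Ts2. Leaving out each mouse in turn, mt-Ts2 passed in all 12 fits in controls, mt-Nd6 in 6 and mt-Co1 in 4 (without WT30 replicates 3, 4 or 7 or WT5 replicate 18). In mice labelled KO, mt-Nd1, mt-Nd4 and mt-Tl1 passed in all 14 fits, and mt-Nd2 and mt-Ts2 in 7 each. Sums of the 5 endothelial markers ranged from 600.2 to 825 CPM in the cold and from 426 to 647 CPM at 30 °C, and those of the 8 macrophage markers ranged from 229 to 323 CPM against 170.4 to 271 CPM. Their part in these values was not tested.

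**Figure D4:**
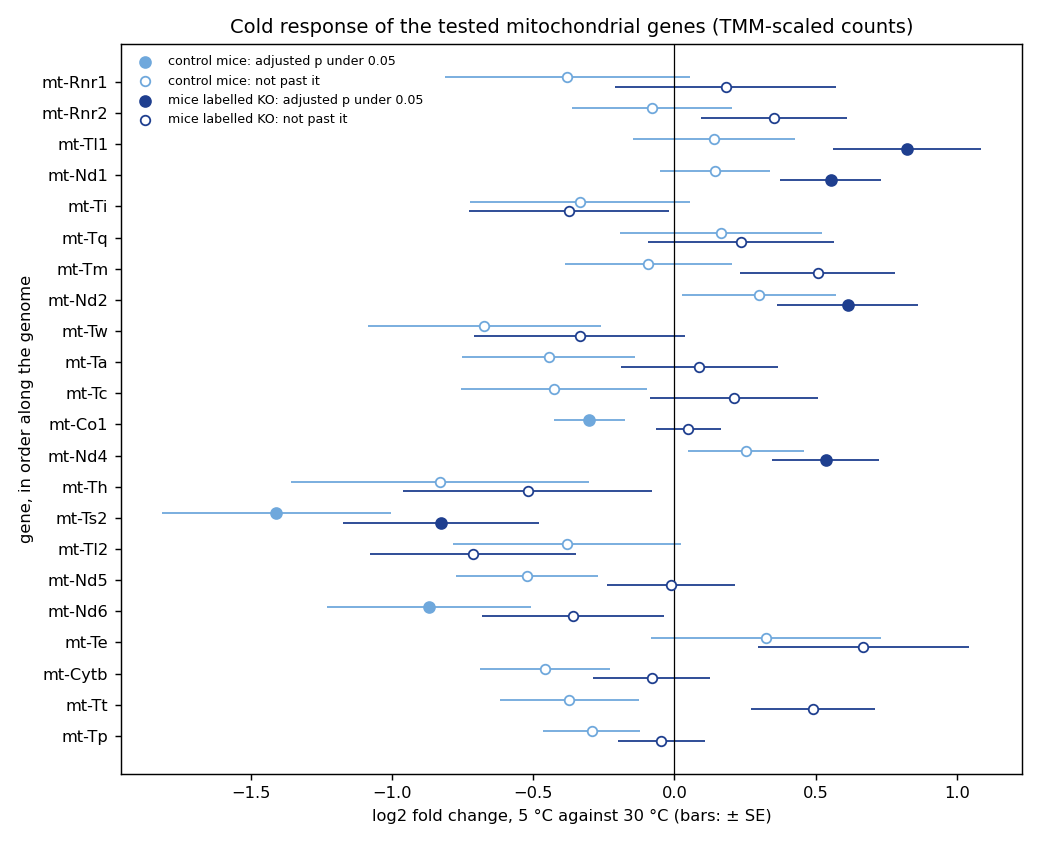
Log2 fold change between 5 and 30 °C (x axis, bars ± SE) of the tested genes in order along the genome (y axis) in control mice and mice labelled KO, without mt-Nd3 and mt-Tg; filled points passed an adjusted p of 0.05. 3 genes were lower in controls, and 4 were higher and 1 lower in mice labelled KO; the sign of mt-Co1 in mice labelled KO turned with library size alone.

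Ratios between mitochondrial RNAs of the same mouse do not depend on library scaling. mt-Nd1, the first mRNA after the rRNAs, was taken as the reference, and the other mRNAs with ample counts and the rRNAs were compared with it in an exact two-sided permutation test, with Benjamini-Hochberg adjustment over the 32 tests (8 genes, 4 comparisons). In the cold 3 mRNAs fell relative to mt-Nd1 in controls, and 4 did in mice labelled KO, where mt-Co1 did not pass in every fit that left out a mouse. In CPM mt-Nd1 itself had a log2 fold change of 0.14 in controls (adjusted p = 0.529 in edgeR's test) and 0.55 in mice labelled KO (adjusted p = 0.00762). There mt-Nd5 (−0.01), mt-Cytb (−0.08), mt-Co1 (0.05) and mt-Nd6 (−0.36) did not pass that test. A lower ratio therefore does not by itself mean a lower level. mt-Nd5 had 38.01 ± 5.22 counts per 100 mt-Nd1 counts in WT30 (SD, n = 7) and 24.1 ± 2.59 in WT5 (n = 5), 0.635 times the ratio (log2 difference −0.65, SE 0.104, exact permutation p = 0.00253, adjusted p = 0.0135). In mice labelled KO it had 36.6 ± 4.29 and 24.5 ± 3.26, 0.667 times the ratio (−0.58, SE 0.0985, exact permutation p = 0.00117, adjusted p = 0.0124). The 5 cold controls, at 22.5, 26.2, 27.2, 21.0 and 23.4, all lay below the 7 control mice at 30 °C (30.6, 39.7 and 44.5 in the lowest, median and highest).

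mt-Cytb moved alike, from 208 ± 22.0 to 137 ± 20.9 counts per 100 mt-Nd1 counts in controls (0.657 times, adjusted p = 0.0135 in the exact permutation test) and from 194 ± 26.6 to 126 ± 14.0 in mice labelled KO (0.654 times, adjusted p = 0.0124). The control groups did not overlap, with 117, 119, 135, 146 and 168 in the 5 cold mice and 174 or more at 30 °C. mt-Co1 went from 1023 ± 106 to 745 ± 59.4 in controls (0.73 times, adjusted p = 0.0135) and from 1006 ± 141 to 743 ± 161 in mice labelled KO (0.73 times, adjusted p = 0.0293), where the call was lost in 8 of the 14 fits that left out a mouse (adjusted p up to 0.0513). The control groups were again apart, whereas those of the mice labelled KO overlapped.

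The light-strand mt-Nd6 had the largest difference of the 8 genes. It stood at 7.97 ± 1.73 counts per 100 mt-Nd1 counts in KO30 and 4.13 ± 0.881 in KO5, 0.519 times the ratio (log2 difference −0.95, SE 0.172, exact permutation p = 0.000583, the smallest the test can give with 7 mice against 7, adjusted p = 0.0124). All 7 cold mice (3.14 to 5.27) lay below all 7 at 30 °C (5.36 to 10.1). In controls the values were 7.91 ± 2.55 and 4.03 ± 0.839, 0.53 times the ratio, with an adjusted p of 0.0505 in the exact permutation test. Leaving out WT30 replicate 7, which at 3.38 was the lowest of its group, brought this to −1.11 on the log2 scale (adjusted p = 0.0198).

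The complex I mRNAs mt-Nd2 and mt-Nd4 behaved differently from mt-Nd5, mt-Nd6, mt-Cytb and mt-Co1. mt-Nd2 had 28.4 ± 4.21 counts per 100 mt-Nd1 counts in WT30 and 32.0 ± 3.71 in WT5, and 28.3 ± 4.00 in KO30 and 29.4 ± 3.74 in KO5. For mt-Nd4 the log2 differences in the cold were 0.11 (SE 0.0869) in controls and 0.02 (SE 0.101) in mice labelled KO, and neither gene passed the threshold in the exact permutation test (adjusted p of 0.425 or more). The ratios of mt-Rnr1 and mt-Rnr2 to mt-Nd1 did not pass it either (adjusted p of 0.356 or more), with SE of 0.133 to 0.308 on the log2 scale. With mt-Nd4 in place of mt-Nd1 as the reference, the log2 differences of mt-Nd5 were −0.76 and −0.61 and those of mt-Nd6 −1.02 and −0.97 in controls and mice labelled KO, and all 4 then passed the threshold. Ratios to mt-Nd1 did not differ past the threshold between mice labelled KO and controls at either temperature for any of the 8 genes (lowest adjusted p = 0.305). The 4 mRNAs with lower ratios include those placed last on the heavy strand, mt-Nd5 and mt-Cytb, but also mt-Co1, which lies before mt-Nd4.

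**Figure D5:**
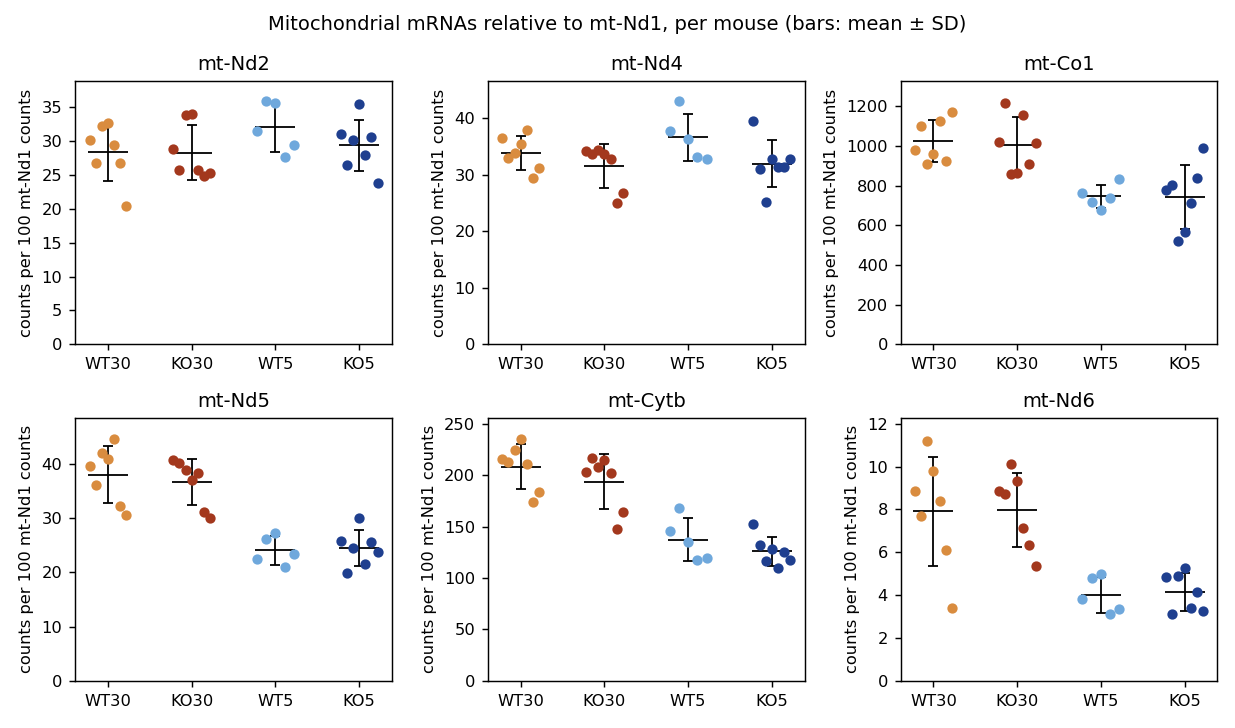
Counts of 6 mitochondrial mRNAs per 100 mt-Nd1 counts (y axes) by group (x axis); points are mice and bars the mean ± SD. mt-Co1, mt-Nd5, mt-Cytb and mt-Nd6 lay lower at 5 °C in both genotypes, mt-Nd5 for example at 24.1 and 24.5 against 38.01 and 36.6, whereas mt-Nd2 and mt-Nd4 overlapped throughout.

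Several mitochondrial RNAs also varied together between the mice of a group. The spread of log2 CPM within groups (pooled SD) was 0.36 for mt-Nd1, 0.53 for mt-Nd2, 0.47 for mt-Nd5, 0.71 for mt-Nd6 and 0.82 for mt-Rnr1, and it shrank to 0.20 for mt-Nd2, 0.185 for mt-Nd5, 0.40 for mt-Nd6 and 0.52 for mt-Rnr1 once the ratio to mt-Nd1 was taken. mt-Co1, with 0.225 before and 0.219 after, and mt-Tp, with 0.31 and 0.32, did not follow the others, and mt-Co1 had the smallest spread in CPM of the 14 genes compared.

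The label made no difference past the threshold for any of the 24 genes. Their median log2 difference between mice labelled KO and controls was −0.25 at 30 °C and 0.18 at 5 °C, beside −0.02 and 0.02 over all genes tested. For the difference between the cold responses the median was 0.36, beside 0.04 over all genes tested. At 30 °C, where 0.0810% of all genes differed, mice labelled KO and controls were apart at an unadjusted p under 0.05 in edgeR's test for mt-Co1 alone (log2 difference −0.25, SE 0.114, adjusted p = 0.607), and DESeq2 called 0 as well. mt-Co1 was 31017, 60464 and 68674 CPM in the lowest, median and highest mouse of WT30 and 41800, 48385 and 52626 CPM in KO30. Without WT30 replicate 7, which held that lowest value, mt-Co1 passed the threshold with a log2 difference of −0.34. At 5 °C, where 0.139% of all genes differed, mt-Tt (0.59, SE 0.244, adjusted p = 0.29) and mt-Tp (0.37, SE 0.171, adjusted p = 0.343) had an unadjusted p under 0.05, and again neither tool called any gene. RNAs kept in the nucleus, listed as a check on the RNA fraction, summed to 12024 to 15178 CPM in KO5 and 16355 to 18129 CPM in WT5 without overlap. Of these RNAs only Neat1 was itself apart (1262 to 2116 CPM in KO5, 2265 to 5405 CPM in WT5), and the others, such as Malat1, overlapped. Of the 8 of them tested, 1 passed the threshold by label at 5 °C, lower in mice labelled KO. For the difference of the cold responses 2 of them passed it, also lower in mice labelled KO. Red blood cell markers summed to 518 to 1500 CPM in KO5 and 417 to 685 CPM in WT5. The part of both lists in the mitochondrial values was not tested. The difference between the cold responses of the genotypes passed the threshold for none of the 24 genes, against 1.16% of all genes, and DESeq2 likewise called 0. mt-Co1 (0.35, SE 0.169, adjusted p = 0.303) and mt-Tt (0.86, SE 0.329, adjusted p = 0.187) had an unadjusted p under 0.05. Without WT30 replicate 7 the difference for mt-Co1 was 0.45 and passed the threshold.

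All the proteins that transcribe and copy mitochondrial DNA are encoded in the nucleus. Of 23 such genes, 9 rose and 7 fell in the cold in controls, and 9 rose and 6 fell in mice labelled KO, with a median log2 fold change of −0.01 and 0.10. These shares were close to those of all genes tested, of which 65.0% passed the threshold in controls and 68.6% in mice labelled KO. Those that rose in controls were led by Mterf3 (log2 fold change 1.04), a transcription factor of the mitochondrion, Polrmt (0.98), the mitochondrial RNA polymerase, Twnk (0.91), the DNA helicase, and Tefm (0.64), the elongation factor. The same 4 led in mice labelled KO, at 0.89, 0.92, 0.92 and 0.75. Tfam, which binds and packages mitochondrial DNA, rose by less (0.39 and 0.60). Among the genes that fell were Rrm2b (−1.49 and −1.30), Tk2 (−1.23 and −0.85) and Dguok (−1.03 and −0.88), which provide deoxynucleotides, Polg2 (−0.85 and −1.17), the accessory subunit of the DNA polymerase, and Mterf1b (−1.32 and −1.005), a termination factor.

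Of the genes for the processing, modification and turnover of mitochondrial RNA, most rose. Of 36 tested, 25 rose and 2 fell in controls and 28 rose and 1 fell in mice labelled KO, with medians of 0.56 and 0.62, where 31.6% and 33.7% of all genes tested were higher. Fastkd5, which acts on mRNA ends that no tRNA borders, rose by 2.17 in controls and 1.96 in mice labelled KO on the log2 scale. Trmt10c, a subunit of the RNase P that cuts precursors at tRNAs, rose by 1.68 and 1.75, Fastkd2, which binds mt-Nd6 and the large rRNA, by 1.65 and 1.64, and Pus1, a pseudouridine synthase, by 1.48 and 1.51. Angel2, listed with the RNA-turnover genes, fell in both (−0.31 and −0.29) and Mrm2, an rRNA methyltransferase, in controls (−0.43). Lrpprc, which with Slirp stabilises heavy-strand mRNAs, rose by 0.63 and 0.66. None of the genes of these lists passed the threshold by label at either temperature or for the difference of the cold responses.

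Nuclear subunits of the complexes that the mitochondrial mRNAs help to build passed the threshold less often in controls than in mice labelled KO, as counts of calls; the difference of the responses is given at the end. Of 36 subunits of complex I, 9 rose and 3 fell in controls and 29 rose in mice labelled KO, with a median log2 fold change of 0.08 and 0.29. Over all 5 complexes 19 of 79 subunits rose in controls and 65 in mice labelled KO, beside the 31.6% and 33.7% of all genes that were higher. These calls, like those of the other nuclear lists, rest on TMM scaling. With library size alone the median log2 fold change of all genes was −0.14 in controls and −0.34 in mice labelled KO. The nuclear genes were not examined under that scaling, so their counts of rises may depend on it. Complex III went from 4 of 9 to 9 of 9, complex IV from 1 of 14 to 12 of 14, and complex V from 5 higher and 2 lower to 13 higher of 16. Of the 4 subunits of complex II, which holds no mitochondrially encoded protein, 1 fell in controls and 2 rose in mice labelled KO. The largest rises past the threshold were in Ndufab1 (0.80 and 0.86), a carrier protein bound to complex I, and, in mice labelled KO, in Ndufb2 (0.68), a further complex I subunit, and Atp5g1 (0.91), a subunit of the rotor of ATP synthase. The difference of the cold responses passed the threshold for none of these 79 subunits, although 46 had an unadjusted p under 0.05 in edgeR's test. The larger number of rises in mice labelled KO was therefore not matched by a difference past the threshold for any single subunit. By label none of the 79 passed it at either temperature, although 30 had an unadjusted p under 0.05 in edgeR's test at 30 °C and 3 at 5 °C. The median log2 difference of the complex I subunits between mice labelled KO and controls was −0.13 at 30 °C and 0.09 at 5 °C. Over all genes tested it was −0.02 and 0.02. As the tissue was sequenced in bulk, fewer cells of a type and less RNA per cell cannot be told apart in any of these values.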

How the data were processed

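Per the labels and the study's methods, rRNA-depleted stranded libraries of total RNA were read as single 100-base reads and aligned to mm10 with STAR 2.5.2b. The deposited values were raw counts per gene, which the authors made with featureCounts 1.5.2, without normalisation. The setting for strand and the handling of reads that match several places were not given in the sources used here. All columns were matched to labelled mice (0 columns unmatched). The temperature of 30 °C is that of the labels, and the study's methods state a slightly lower one for thermoneutrality.

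Members were genes whose symbol begins with mt-. The members and lists were chosen with earlier results of these data known. The counts were analysed in R 4.3.3 with edgeR 4.0.16 (limma 3.58.1): genes were filtered by group with filterByExpr, TMM factors were computed, and quasi-likelihood tests were made in one fit of the 4 groups over 26 mice, with a threshold of 0.05 after Benjamini-Hochberg adjustment over 17286 genes. The code was tested on simulated data. Shares are percent of all counts and carry no test. Log2 ratios to mt-Nd1 were compared by exact permutation, a measure chosen after seeing the data, as were the sum of mt-Nd3 and its copy and mt-Nd4 as the reference. Copies were sought in annotated transcripts at 85% identity or more, and windows of 100 bases were matched exactly. Sequences come from the annotated transcripts of the reference. Named were all mRNAs and rRNAs, on each strand the 4 tRNAs with the highest mean CPM and any past the threshold (at most 5 a direction), up to 4 nuclear genes per list and direction by fold change, and copies of at least 95% identity and 1 CPM (at most 8). Further nuclear genes, such as Tfam and Lrpprc, were named after their values were seen.

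Alternatives were library size alone, upper-quartile factors, factors from nuclear genes, other filters, only the groups compared, robust and revised quasi-likelihood fits, DESeq2 1.42.0 and leaving out each mouse. Total counts ran from 12705969 to 25732258 per mouse, which limits mainly the tRNAs with few counts. Among 73 pairs of mice within groups none had counts within sampling noise of each other (lowest chi-square per gene 5.17).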

Additional observations from a re-analysis of the deposited data

Results flagged for a closer look

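Of 72 sets of values within a group that were examined by Dixon's test for a mouse far from the others, 13 gave one, where chance gives about 1 in 20. In 12 of them it was WT30 replicate 7, the lowest of its group. Its gap to the next mouse, as a share of the range of the 7 mice on the log2 scale, was 0.803 for mt-Rnr2, 0.794 for mt-Ts2, 0.767 for mt-Nd1, 0.763 for mt-Nd2 and 0.761 for mt-Nd5. It was 0.745 for mt-Nd6, 0.745 for mt-Cytb, 0.732 for mt-Nd4, 0.723 for mt-Rnr1 and 0.697 for mt-Co1. For the share of all counts it was 0.658 on mRNAs (5.26% against 7.88% in the next mouse) and 0.693 on rRNAs (8.99% against 25.3%). The same mouse had the highest sum of skeletal muscle markers of its group, 6086 CPM, whose part in these values was not tested.

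The other was mt-Nd3 in KO30 replicate 12, with a gap of 0.842 of the range. That mouse was the only one of KO30 with at most 2 counts on mt-Nd3.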

How the results depend on the processing

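In control mice the number of mitochondrial genes that differed in the cold was 3, and it became 7 with library size alone, 6 with upper-quartile factors and 5 in a fit of only the groups compared, all of them lower in the cold. It was 1 to 7 when each mouse was left out in turn, 7 without WT30 replicate 7, and the corresponding ranges were 3 to 6 in mice labelled KO, 0 to 1 by label at 30 °C, 0 to 0 at 5 °C and 0 to 1 for the difference of the responses. The other 62 values and counts of whole comparisons under alternatives that kept every mouse stayed within the spread or within 1.5 times. In mice labelled KO the direction in the cold turned with library size alone for mt-Rnr1 (−0.19) and mt-Co1 (−0.28), with upper-quartile factors for mt-Co1 (−0.11), with a minimum of 10 counts in every mouse for mt-Co1 (−0.014) and with DESeq2 for mt-Nd5 (0.00082). Leaving out single mice turned it for mt-Nd1 (−0.00065 to 0.20), mt-Nd3 (−1.44 to 0.0504) and mt-Tl1 (−0.11 to 0.27) in controls. In mice labelled KO it did so for mt-Rnr1 (−0.14 to 0.42), mt-Co1 (−0.014 to 0.0729), mt-Nd5 (−0.18 to 0.0704), mt-Cytb (−0.21 to 0.0045) and mt-Tp (−0.17 to 0.0592), and for the ratio of mt-Nd4 to mt-Nd1 (−0.0322 to 0.0772). Of the ratios that passed the threshold, mt-Co1 in mice labelled KO lost it in 8 of 14 such fits (adjusted p up to 0.0513). The cause of these changes was not tested. Of the single-gene values under the other alternatives, 290 kept their direction and their side of the threshold, 19 passed it only there and 10 no longer did. No paired analysis was possible because the groups share no replicate number.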
